A study of Rattus norvegicus with 10 samples.

Results

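The genes described here are Cd74 and 5 genes of the major histocompatibility complex (MHC) class II pathway, namely RT1-Da, RT1-Db1, RT1-Ba, RT1-Bb and Ciita. They were selected by name, and no measured value entered the rule. All 6 were found among the 14166 genes of the bulk RNA-seq table of the rat dentate gyrus and among the 25399 genes of the single-nucleus RNA-seq (snRNA-seq) matrices. In the snRNA-seq data they were read mainly in microglia, of which a marker gate kept 1737 of 55124 nuclei.

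MHC class II molecules present peptides from the endosome to CD4 T cells. Each is built of an alpha and a beta chain, and in the rat the RT1-D molecule is encoded by RT1-Da and RT1-Db1 and the RT1-B molecule by RT1-Ba and RT1-Bb. Cd74, the invariant chain, holds newly made chains together, blocks their groove and carries them to the endosome, and it also serves at the cell surface as a receptor for the cytokine MIF. Ciita is the coactivator that turns these genes on. It does not bind DNA itself and is held at their promoters by the RFX, CREB and NF-Y factors, and interferon gamma is the best known signal that induces it. In the uninjured brain, microglia carry little MHC class II, while macrophages at the brain's borders, dendritic cells and B cells carry much more.

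Traumatic brain injury (TBI) was given to male Sprague-Dawley rats by lateral fluid percussion, in which a fluid pulse is delivered to the intact dura through a craniectomy made days earlier. Sham rats underwent the same surgery without the pulse, and a naïve rat had no surgery. The dentate gyrus of the injured side was taken 3 weeks after injury for bulk RNA-seq of 3 sham and 3 TBI rats, and for snRNA-seq of 2 TBI rats, 1 sham rat and 1 naïve rat. The labels give no age, and the study treated the sham and the naïve rat together as the control of the snRNA-seq data. The question these genes address is whether MHC class II expression still differed weeks after the injury, and in which cells.

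Bulk libraries held 25121893 to 44649404 transcript counts. The listed dates of injury fell in months before July for sham replicates 1 and 2 and TBI replicate 1 and in July or later for the other 3 rats. Only the month was used for this split into 2 injury periods, and each group had rats of both. Sham replicate 2 stood apart in myelin genes, its 4 oligodendrocyte markers summing to 15738 CPM (counts scaled to a library of 1e6) against 4639 to 7231 CPM in the other 5 libraries. Sham replicate 1 was the highest library for the glutamatergic neuron markers Prox1 (105.6 CPM) and Calb1 (127.7 CPM). Sham replicates 2 and 3 held at most 25.6 and 37.9 CPM of these, and the TBI libraries 38.7 to 91.95 CPM of Calb1. The 4 glutamatergic neuron markers summed to 2610 CPM in sham replicate 1, within the 2071 to 3052 CPM of the other libraries. The bearing of these differences in tissue on the class II genes was not tested. The matrices kept 11285 to 16931 nuclei per rat with a median of 1647 to 2652 unique molecular identifiers (UMIs), and any pair of rats shared 45 to 60 cell barcodes. The share of stored matrix entries with a value of 0 differed widely between rats, from 1.63% in TBI replicate 1 to 27.4% in TBI replicate 2.

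Since Ciita acts through promoter elements, the stretches that hold them in the chain genes are shown first. Of the 6 genes, 5 had an entry in the RefSeq promoter table of the rat build GRCr8, and Ciita had none. Capitals mark 2 elements on the strand of the gene: the X core AGNNACNGATG, in the region where RFX and CREB factors are known to act, and TGATTGG, a Y box with its flank, the element known for NF-Y. RT1-DMa, which encodes a chain of the class II peptide loading factor, is added because its bulk level was lower in TBI, unlike that of the rest.
RT1-Da, chr20:4515309-4515388, plus strand: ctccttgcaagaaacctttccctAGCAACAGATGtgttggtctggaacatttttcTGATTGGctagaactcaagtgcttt
RT1-Db1, chr20:4560220-4560299, minus strand: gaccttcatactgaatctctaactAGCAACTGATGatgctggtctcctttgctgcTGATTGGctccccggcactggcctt
RT1-Ba, chr20:4576957-4577036, plus strand: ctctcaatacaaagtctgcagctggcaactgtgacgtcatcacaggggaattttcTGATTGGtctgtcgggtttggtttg
RT1-Bb, chr20:4604157-4604236, minus strand: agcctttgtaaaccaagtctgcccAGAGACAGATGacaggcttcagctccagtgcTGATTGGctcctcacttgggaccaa
RT1-DMa, chr20:4712377-4712456, minus strand: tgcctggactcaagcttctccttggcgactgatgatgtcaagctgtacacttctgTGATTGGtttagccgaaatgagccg

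The promoters of all 4 chain genes held TGATTGG, its first base lying 45 to 82 bases before the start of the gene. In RT1-Da, RT1-Db1 and RT1-Bb the X core began 31 or 32 bases before it. In the 250 bases before the start, on both strands, TGATTGG was found in 6.42% of 33469 rat promoters, the X core in 0.753%, and both together in 21 promoters (0.0627%). The shorter Y core ATTGG, which TGATTGG contains, was found in 34.0% of them. RT1-Ba and RT1-DMa held the Y box and no match to the X core as spelled here. The window of Cd74 held neither, apart from an ATTGG on the opposite strand that began 189 bases before the start. Further class II genes held them too: RT1-DOb and RT1-Db2 both elements, and RT1-DOa and RT1-Ha the Y box. The form TGATTGG was chosen after the sequences were seen, and these matches describe the letters of the windows and were not tested for binding. The bulk and snRNA-seq files use an older build, Rnor_6.0, so only letters and no positions were joined to them.

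In the bulk libraries, Cd74, the invariant chain, was higher in every TBI library than in any sham library. Its level was 18.4, 68.5 and 47.6 CPM in sham replicates 1, 2 and 3 and 138, 257 and 182 CPM in TBI replicates 1, 2 and 3. The means were 44.8 ± 25.2 CPM in sham and 192 ± 60.2 CPM in TBI (SD, n = 3), and the Log2FC was 2.06 with a standard error (SE) of 0.46, a 4.17-fold difference. Sham replicate 1 was the lowest of all 6 libraries and sham replicate 2 the highest of the sham libraries, while TBI replicate 2 was the highest of all.

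The RT1-D chain genes had the same order of groups. RT1-Da, the alpha chain, measured 4.49, 15.7 and 9.52 CPM in sham replicates 1 to 3 and 22.4, 44.5 and 43.1 CPM in TBI replicates 1 to 3. RT1-Db1, the beta chain, measured 2.55, 12.1 and 8.79 CPM in sham and 14.96, 29.9 and 28.0 CPM in TBI. The groups did not overlap for either gene, although TBI replicate 1 lay close above sham replicate 2 for RT1-Db1. The Log2FC was 1.85 (SE 0.45) for RT1-Da and 1.59 (SE 0.52) for RT1-Db1.

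The RT1-B chain genes differed by more on the log2 scale. RT1-Ba, the alpha chain, measured 1.26, 5.76 and 4.12 CPM in sham and 12.1, 27.7 and 21.3 CPM in TBI replicates 1 to 3. RT1-Bb, the beta chain, measured 0.419, 3.30 and 2.16 CPM in sham and 7.32, 13 and 15.1 CPM in TBI. In both genes the lowest TBI library stood over the highest sham library with a wide gap, and sham replicate 1 was again far below the other sham libraries, with 11 counts of RT1-Bb against 90 and 95. The Log2FC was 2.40 (SE 0.53) for RT1-Ba and 2.53 (SE 0.63) for RT1-Bb, so that the SEs of the 4 chain genes overlapped and no order among them was tested.

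Ciita, their coactivator, was much less abundant, with 11, 12 and 24 counts in sham replicates 1 to 3 and 27, 39 and 58 counts in TBI replicates 1 to 3. These correspond to 0.419, 0.440 and 0.547 CPM in sham and 1.09, 1.27 and 2.07 CPM in TBI, with a Log2FC of 1.60 (SE 0.43). The sham libraries lay close together for Ciita and did not follow the order seen for Cd74 and the chains, in which sham replicate 2 was the highest and sham replicate 1 the lowest.

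**Figure D1:**
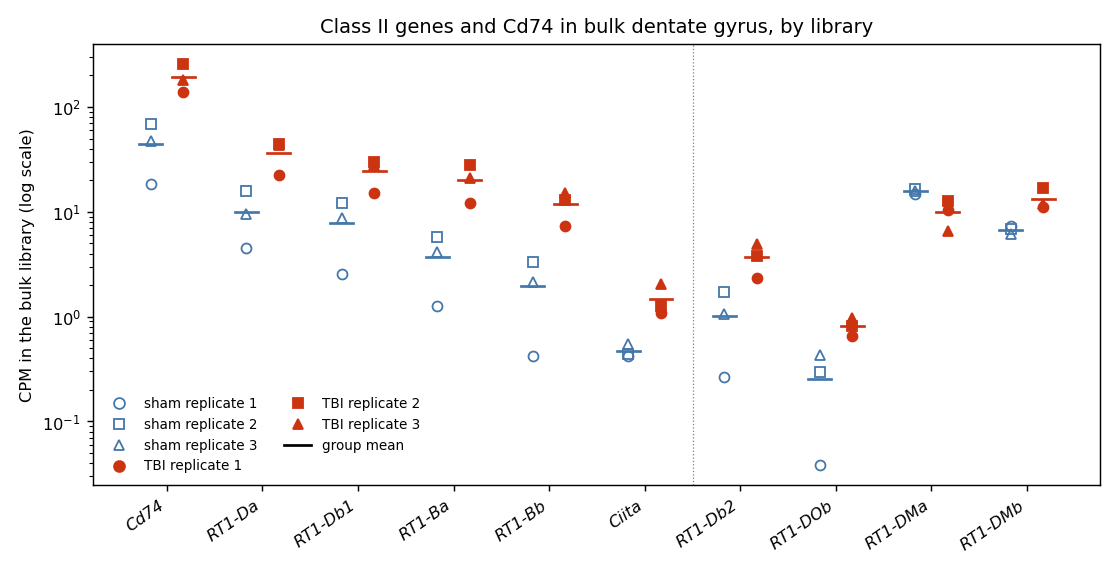
Level of each gene in CPM on a log scale in the 3 sham (open blue) and 3 TBI (filled red) bulk libraries, with the group means as bars. The 6 genes left of the dotted line have every TBI library above every sham library, sham replicate 1 lies lowest for Cd74 and the chain genes, and RT1-DMa lies lower in TBI; levels are not corrected for gene length, so heights are to be compared within a gene only.

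All 6 genes thus had every TBI library above every sham library, which 11.7% of all genes did, while 3.04% had every TBI library below. The median Log2FC of the 6 was 1.95, beside −0.0029 for all genes tested. By edgeR's quasi-likelihood test with Benjamini-Hochberg adjustment over 14166 genes, none of the 6 passed an FDR of 0.01, with FDR values from 0.205 for RT1-Ba to 0.362 for RT1-Db1, and no gene of the table did (0.0%). All 6 had an unadjusted p under 0.05 and were higher in TBI, as were 8.2% of all genes, while 1.4% of all genes were lower. DESeq2 called 169 genes (1.19%) at that threshold, 166 of them higher in TBI (1.17%), and among them RT1-Ba (FDR = 0.000449), RT1-Da (FDR = 0.00232) and RT1-Bb (FDR = 0.00254). It did not call Cd74 (FDR = 0.0273), RT1-Db1 (FDR = 0.0520) or Ciita (FDR = 0.108). None of the 6 was called by DESeq2 without sham replicate 3, without TBI replicate 2 or without TBI replicate 3, and Cd74 was called, with FDR values under 0.01, without sham replicate 1 or sham replicate 2. When only the DESeq2 p-values under 0.05 were adjusted, 475 genes (3.35%) were called, 462 of them higher in TBI (3.26%), and 5 of the 6 were among them, all but Ciita (FDR = 0.0116). The TBI libraries also differed in the same direction within each injury period. The difference of Cd74 was 1.96 before July (1 TBI and 2 sham libraries) and 2.18 in July or later (2 TBI libraries and 1 sham library) on the log2 scale. The other 5 genes differed by 1.31 to 2.61 before July and by 1.56 to 2.69 in July or later.

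Across the 6 bulk libraries, Cd74 and the 4 chain genes moved closely together, with Pearson's r of log2 CPM from 0.977 to 0.998 for any pair, while Ciita's r with them was 0.815 to 0.873. The 6 points fall into a sham and a TBI group, so these values describe mostly the group difference. By the same measure, and with the 6 genes themselves left out, the 8 genes most like Cd74 were Prickle3, Tlr4, Clec12a, Tnfrsf1b, Cmtm3, Tpcn2, Fut7 and Abca1, with r from 0.984 to 0.995. Tlr4 encodes the endotoxin receptor and Tnfrsf1b a receptor of tumour necrosis factor. For the RNA of the alpha chains, RT1-Da minus RT1-Ba on the log2 scale was 1.82, 1.44 and 1.21 in sham replicates 1 to 3 and 0.90, 0.68 and 1.02 in TBI replicates 1 to 3. This difference was lower in every TBI library. An exact permutation test gave a two-sided p of 0.1, the lowest that 3 against 3 libraries allow, and sham replicate 1 had 33 counts of RT1-Ba. Within each molecule the ratio of alpha to beta chain overlapped between groups.

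A higher level in bulk tissue can come from more cells that express a gene or from more RNA in each of them, and the bulk data alone cannot tell these apart. The mean of the 12 microglial markers analysed, such as Csf1r, Cx3cr1 and P2ry12, was itself 1.0 higher in TBI on the log2 scale, with no overlap between the groups. Their Log2FC ran from 0.49 for Inpp5d, which overlapped, to 1.49 for Ptprc, so the differences below depend on which markers are averaged. Each gene was therefore also read relative to the mean of these markers within its library. Cd74 minus the markers was 0.07, 1.84 and 1.44 in sham replicates 1 to 3 and 2.20, 2.35 and 2.54 in TBI replicates 1 to 3 on the log2 scale. The TBI libraries still lay above sham, by 1.25 on average. RT1-Ba minus the markers was −3.78, −1.72 and −2.08 in sham and −1.31, −0.86 and −0.56 in TBI replicates 1 to 3, and RT1-Bb was −5.32, −2.52 and −3.01 in sham and −2.03, −1.95 and −1.06 in TBI. Both lay above sham in every TBI library, by 1.62 and 1.94. Sham replicate 1 was far below the other sham libraries in all 3 genes, and without it the groups still did not overlap but the differences were 0.72 for Cd74, 0.99 for RT1-Ba and 1.09 for RT1-Bb. For RT1-Da, RT1-Db1 and Ciita the groups overlapped on this scale, with differences of 0.99, 0.84 and 0.57, which were 0.54, 0.19 and 0.53 without sham replicate 1, and that of Ciita was 0.21 without TBI replicate 3. On that scale sham replicate 2 exceeded at least 1 TBI library for RT1-Da and RT1-Db1. An exact permutation test of 3 against 3 libraries cannot go below a two-sided p of 0.1, so none of these differences could pass a threshold.

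**Figure D2:**
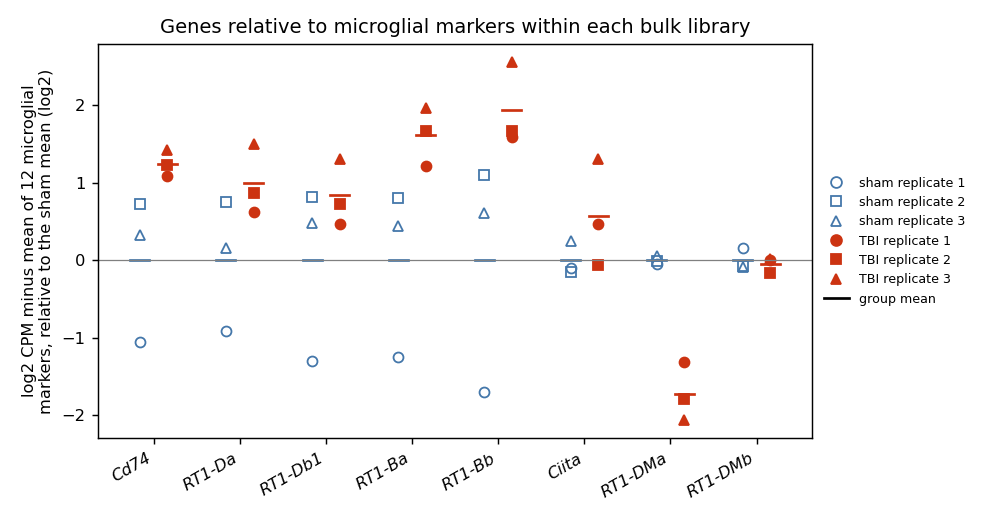
Log2 CPM of each gene minus the mean of 12 microglial markers in the same bulk library, set relative to the sham mean, for 3 sham (open blue) and 3 TBI (filled red) libraries with group means as bars. TBI libraries lie above sham for Cd74, RT1-Ba and RT1-Bb, overlap with sham for RT1-Da, RT1-Db1, Ciita and RT1-DMb, and lie below it for RT1-DMa.

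The further class II genes did not all share that direction. RT1-DMa and RT1-DMb encode the chains of the DM molecule, which removes the remnant of the invariant chain and helps load peptides. RT1-DMa was lower in TBI, with 14.8, 16.6 and 15.9 CPM in sham replicates 1 to 3 and 10.5, 12.6 and 6.53 CPM in TBI replicates 1 to 3. RT1-DMb was higher, with 7.33, 6.79 and 6.17 CPM in sham and 11.2, 16.8 and 11.9 CPM in TBI. The groups did not overlap for either gene, and the 3 sham libraries lay close together in both, unlike for Cd74 and the chains. The Log2FC of RT1-DMa was −0.71 (SE 0.24, FDR = 0.375 by edgeR) and that of RT1-DMb was 0.95 (SE 0.19, FDR = 0.196 by edgeR), and DESeq2 called RT1-DMb (FDR = 0.00873) and not RT1-DMa. Relative to the microglial markers, RT1-DMb differed by −0.05 between the groups and RT1-DMa by −1.73. RT1-DOb, a chain of the DO molecule that modulates DM, had 1, 8 and 19 counts in sham and 16, 25 and 27 counts in TBI replicates 1 to 3, and its CPM did not overlap between the groups. RT1-Db2, a second beta chain gene next to RT1-Db1, measured 0.267, 1.72 and 1.05 CPM in sham and 2.35, 3.76 and 4.91 CPM in TBI. RT1-Db1 and RT1-Db2 are near copies, so the split of reads between them can be uncertain. Their estimated counts were whole numbers in every library but sham replicate 3. Those of RT1-DMa, RT1-DMb and Cd74 were not whole in any library. Some of their reads were thus shared out between transcripts, and their levels depend in part on that assignment. RT1-DOa, RT1-Ha and RT1-Hb were not analysed here in bulk.

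Of 7 genes for factors that hold Ciita at the promoters, 6 were analysed in bulk, and Rfxap was not analysed here. Rfx5, Rfxank, Nfya, Nfyb, Nfyc and Creb1 all overlapped, with a median Log2FC of 0.07 and a range from −0.16 to 0.26. Rfx5, an RFX subunit, differed by 0.15 (SE 0.11). Of 7 genes that carry interferon gamma signals to Ciita, Ifngr1, Irf1 and Irf8 were higher in every TBI library, against 11.7% of all genes, and the other 4 overlapped. Irf8, a transcription factor of the myeloid lineage, measured 7.63 CPM on average in sham and 27.7 CPM in TBI (Log2FC 1.83, SE 0.41), and Ifngr1, a chain of the interferon gamma receptor, had a Log2FC of 0.77 (SE 0.16). DESeq2 called these 2, against 1.19% of all genes, and not Irf1 (Log2FC 0.63, SE 0.17). Jak1, the most abundant of the 7, differed by −0.14 (SE 0.17). Ifng was not analysed here in bulk.

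Among 7 genes for cutting the invariant chain and handling class II in the endosome, Ctss, Lgmn and Ifi30 were higher in every TBI library, against 11.7% of all genes. Ctss, cathepsin S, which makes the last cuts in the invariant chain, averaged 171 CPM in sham and 332 CPM in TBI (Log2FC 0.92, SE 0.17), and Ifi30, a thiol reductase that opens disulphide bonds of antigens, had a Log2FC of 1.26 (SE 0.24). DESeq2 called both. Lgmn, a protease of the same compartment, had a Log2FC of 0.88 (SE 0.21). Sppl2a, the protease that removes the remaining membrane stub of Cd74, Ctsl, Marchf1 and Marchf8, the ligases that send class II for degradation, overlapped between the groups.

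Of 6 genes of costimulation and of the T cell side, 5 were higher in every TBI library, against 11.7% of all genes. These were Cd86 and Cd40, which costimulate T cells, the adhesion molecule Icam1, the class II coreceptor Cd4, which rat microglia and macrophages also express, and Lag3, an inhibitory receptor that binds class II. Lag3 averaged 0.186 CPM in sham and 2.51 CPM in TBI (Log2FC 3.74, SE 0.96). It had 2, 10 and 5 counts in sham and 26, 170 and 26 counts in TBI replicates 1 to 3, so its TBI mean rested largely on TBI replicate 2. Cd4 averaged 6.20 CPM in sham and 22.1 CPM in TBI (Log2FC 1.79, SE 0.49), and Icam1 3.56 and 10.0 CPM (Log2FC 1.46, SE 0.27). DESeq2 called Icam1 and Lag3, against 1.19% of all genes. Cd80, which shares its T cell receptors with Cd86, had a Log2FC of 0.05 (SE 0.20). Of the genes of Cd74's role as a receptor, Mif itself averaged 90.7 CPM in sham and 84.1 CPM in TBI (Log2FC −0.15, SE 0.13), and of its partner receptors Cxcr4 was higher in every TBI library (Log2FC 0.30, SE 0.22) and Cd44 overlapped (Log2FC 1.16, SE 0.57). By edgeR's test no gene of these lists passed an FDR of 0.01.

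**Figure D3:**
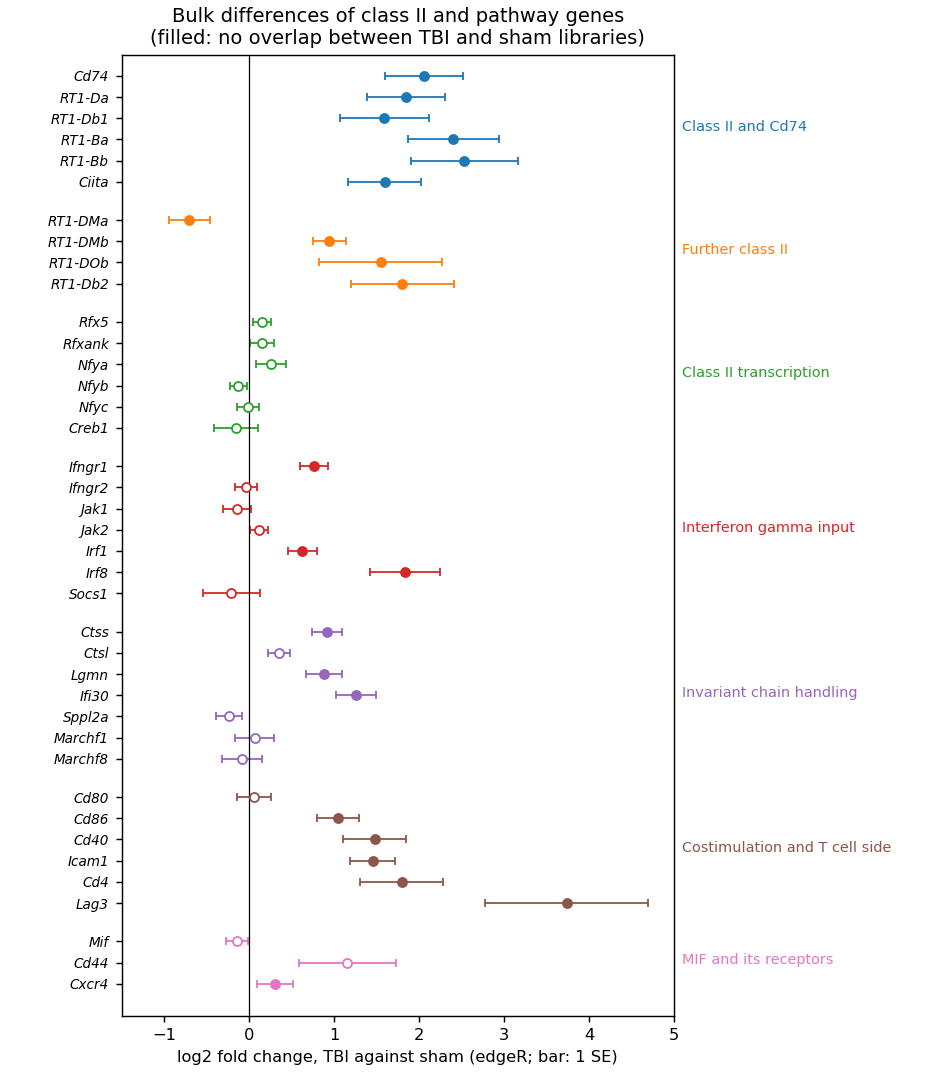
Log2 fold change of TBI against sham in bulk by edgeR with bars of 1 SE, for Cd74, the chain genes and Ciita and for 6 lists of pathway genes. Filled points mark genes whose TBI and sham libraries did not overlap; all 6 class II and Cd74 genes lie between 1.59 and 2.53, RT1-DMa lies at −0.71, and the class II transcription factors lie near 0.

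Border macrophages, dendritic cells and B cells can also carry class II, and their markers were read in the same libraries. Of 6 border macrophage markers, 5 were higher in every TBI library, as 11.7% of all genes were, and none was called by DESeq2, while their summed level was 16.3 to 19.9 CPM in sham and 28.8, 31.6 and 78.3 CPM in TBI replicates 1 to 3. Mrc1, the mannose receptor of these cells, had a Log2FC of 1.84 (SE 0.52) and Stab1 of 1.51 (SE 0.39). The libraries did not rank alike, since TBI replicate 3 was the highest for the border markers and TBI replicate 2 for Cd74. Of 3 dendritic cell markers, Clec10a was higher in every TBI library while Flt3 and Zbtb46 overlapped, the summed level being 13.9 to 21.0 CPM in sham and 19.2 to 30.9 CPM in TBI. The B cell gene Blk, the only 1 of 6 B cell markers analysed in bulk, stood at 0.849 to 1.12 CPM in sham and 1.36 to 1.66 CPM in TBI. The 2 T cell markers summed to 0.660 to 5.48 CPM in sham and 1.21 to 11.4 CPM in TBI, and the 3 monocyte and neutrophil markers to 30.1 to 58.2 CPM in sham and 44.3 to 177 CPM in TBI. The summed levels of the dendritic cell, T cell and monocyte markers overlapped between the groups, and DESeq2 called none of these markers. The part of these cells in the bulk differences was not tested.

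In the snRNA-seq data, microglia were taken as nuclei with a UMI of at least 2 of the 4 genes Csf1r, Inpp5d, Dock8 and Ptprc and with at least 0.1% of their UMIs in these genes. The gate kept 383, 690, 295 and 369 nuclei of TBI replicates 1 and 2, sham and naïve, with median depths of 870, 670.5, 787 and 782 UMIs. The 10 microglial markers that the gate did not use were more abundant there than in all other nuclei in every rat, at 1316 to 2581 CPM against 102 to 159 CPM, although Siglech was at 0 in 3 rats. The 4 astrocyte markers were also more abundant there in every rat, at 996 to 1688 CPM against 555 to 806 CPM in all other nuclei. The same held for the 4 oligodendrocyte markers within each rat, at 390 to 1031 CPM against 339 to 756 CPM. The gated nuclei thus also held RNA of other cell types. Of the gated nuclei, 118, 181, 98 and 111 also passed the gate of another cell type, and no doublet caller was run.

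Class II UMIs in these microglia came mostly from 1 of the 2 TBI rats. Cd74 had 2 and 49 UMIs in TBI replicates 1 and 2, 7 in sham and 8 in naïve nuclei. Scaled to the UMIs of the gated nuclei this is 4.45 CPM (exact Poisson 95% interval 0.538 to 16.1), 72.3 (53.5 to 95.5), 22.5 (9.04 to 46.3) and 17.9 (7.74 to 35.3). TBI replicate 2 lay above both controls, with intervals that do not meet theirs, and TBI replicate 1 lay below both, with an interval that overlaps theirs. Intervals of this kind cover counting error only.

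The 4 chain genes summed to 6, 68, 0 and 19 UMIs in the same order of rats, or 13.3, 100.3, 0 and 42.6 CPM. RT1-Da had 1, 21, 0 and 10 UMIs, and RT1-Db1 had 4, 26, 0 and 3. RT1-Ba had 1, 16, 0 and 5 UMIs, and RT1-Bb had 0, 5, 0 and 1. The naïve rat, which had no surgery, thus lay above TBI replicate 1 for the summed chains, and the sham rat had none, where a count of 0 allows up to 9.64 CPM, taken as 3 counts (the exact two-sided interval drawn in the plot of cell types ends at 11.8 CPM). Ciita had 3 and 2 UMIs in the TBI rats and none in the controls, where a count of 0 allows up to 9.64 CPM in the sham rat and 6.73 CPM in the naïve rat against 6.67 and 2.95 CPM measured in TBI, so no difference was detectable at this depth.

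The share of gated microglia with a Cd74 UMI was 0.522%, 5.94%, 2.03% and 2.17% in TBI replicates 1 and 2, sham and naïve, which is 2 of 383, 41 of 690, 6 of 295 and 8 of 369 nuclei. The TBI mean exceeded the control mean by 1.13 percentage points, which was less than the distance between the 2 TBI rats (exact permutation test over rats, two-sided, p = 1, and 2 against 2 rats cannot reach 0.05). With each nucleus thinned to 500 UMIs, so that depth was equal, the shares were 0.261%, 4.06%, 1.36% and 1.36%. In glutamatergic neurons, which should lack the gene, the unthinned share was 0.134%, 0.297%, 0.0482% and 0.0979% at median depths of 1800 to 2857 UMIs. After thinning it was 0.198% in TBI replicate 2 and 0 in the other 3 rats. Among microglia of at least 1000 UMIs the order of the rats was another, with 2 of 123, 4 of 195, 3 of 85 and 0 of 93 nuclei, or 1.63%, 2.05%, 3.53% and 0%, and the difference of the means was 0.0739 points.

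Some microglia held both Cd74 and a chain gene. In TBI replicate 2, 13 of 41 microglia with a Cd74 UMI also had a UMI of a chain gene, against 37 of 649 microglia without one, at median depths of 630 and 673 UMIs. The counts were 2 of 2 against 4 of 381 in TBI replicate 1, 0 of 6 against 0 of 289 in the sham rat and 2 of 8 against 10 of 361 in the naïve rat. At least 1 of the 5 genes was found in 6, 78, 6 and 18 gated nuclei of TBI replicates 1 and 2, sham and naïve, or 1.57%, 11.3%, 2.03% and 4.88% of them.

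Of the 6 cell types with at least 50 nuclei in every rat, microglia had the highest level of Cd74 in each rat. Gated astrocytes held 0.712, 10.8, 1.32 and 3.09 CPM in TBI replicates 1 and 2, sham and naïve, and the other 4 cell types held at most 5.28 CPM. TBI replicate 2 was the highest of the 4 rats for Cd74 in each of the 6 cell types. Most nuclei with Cd74 lay outside the microglial gate all the same, since 2 of 29, 41 of 144, 6 of 19 and 8 of 32 such nuclei were inside it. The study's own clustering assigned more nuclei to microglia than this gate kept, so nuclei outside it cannot be taken as other cell types. Of all nuclei with Cd74, 15, 105, 13 and 24 had a UMI of at least 1 microglial marker or gate gene. Such a UMI was common, being found in 3554 of 12125, 3493 of 13710, 3918 of 16636 and 2609 of 10916 nuclei outside the gate. Only 1 Cd74 UMI was found in 26 of the 29, 128 of the 144, 17 of the 19 and 27 of the 32 nuclei. Ciita had 16, 22, 21 and 15 UMIs over all nuclei, or 0.492, 0.843, 0.595 and 0.431 CPM, of which the gated microglia held 3, 2, 0 and 0. RT1-Db2 differed little between cell types, with 3.21 to 6.67 CPM in microglia, where it had 1 to 4 UMIs per rat, and 2.49 to 4.12 CPM in glutamatergic neurons.

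**Figure D4:**
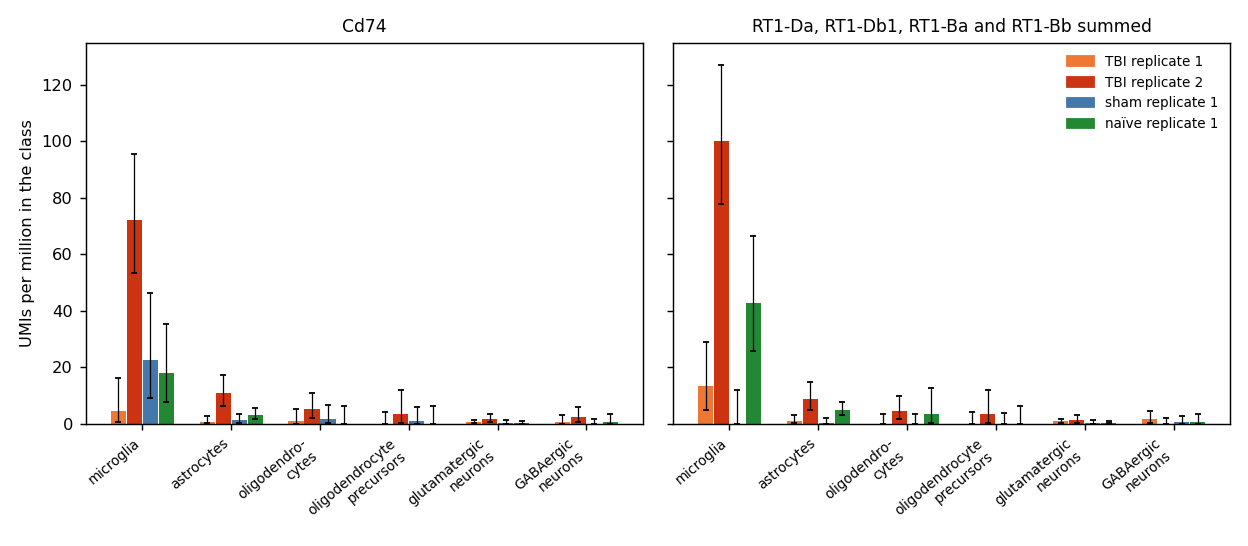
CPM of Cd74 (left) and of the 4 chain genes summed (right) in gated nuclei of 6 cell types, 1 bar per rat, with exact Poisson 95% intervals that cover counting error only. In microglia TBI replicate 2 stands at 72.3 and 100.3 CPM, above the other 3 rats, while TBI replicate 1 stands at 4.45 and 13.3.

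Summed over the gated microglia of each rat and tested with edgeR over 7891 genes, no gene passed an FDR of 0.01 (0.0%), with 329 genes at an unadjusted p under 0.05, and DESeq2 called none, with 60 genes at an unadjusted p under 0.05. Only Cd74 and RT1-Da of the 6 passed the filter on low counts, which asks for a minimum in at least as many rats as the smaller group holds and which RT1-Db1, with most of its UMIs in 1 rat, did not pass. They had a Log2FC of 1.0 (SE 0.88) and 0.48 (SE 1.12) and an FDR of 0.999 for both. With no filter on low counts, 5 of 16062 genes passed (0.0311%), 3 of them higher in TBI (0.0187%), and none of the 6 did. The Log2FC of Cd74 was 1.81 without TBI replicate 1 and −2.09 without TBI replicate 2, so its direction rested on that rat. Of the pathway lists in the same fit, Irf8 was higher in TBI at an unadjusted p under 0.05 (Log2FC 0.95, SE 0.37; FDR = 0.999 by edgeR), as were 1.56% of all genes, and Ctss, Lgmn and Ifi30 had Log2FC values of −0.78 (SE 0.44), −0.02 (SE 0.35) and −1.09 (SE 0.56). Of the 4 astrocyte markers in that fit, 3 (Slc1a2, Aqp4 and Gja1) were lower in TBI at an unadjusted p under 0.05, as were 2.61% of all genes. RNA of other cell types in the gated nuclei may thus differ between the groups, which was not tested. Over all nuclei of each rat, the Log2FC was 2.04 for Cd74, 1.41 for RT1-Da, 1.97 for RT1-Db1 and 0.30 for Ciita (FDR = 0.982 by edgeR for each), and without TBI replicate 2 it was 0.18 for Cd74. Cd74 alone of these had an unadjusted p under 0.05, with 2.09% of all genes higher and 1.35% lower in TBI at that level. No gene passed an FDR of 0.01 over all nuclei by edgeR (0.0%), and DESeq2 called 1 gene (0.00627%), which was higher in TBI and none of the 6. Without TBI replicate 1, where a lone TBI rat is assumed to vary like the controls, 50 genes passed (0.303%), Cd74 among them (FDR = 0.00329 by edgeR), but with no filter on low counts that fit called 0 genes and Cd74 had an FDR of 0.939.

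Markers of border macrophages were also present in the gated microglia. The 7 markers summed to 9, 50, 36 and 9 UMIs in TBI replicates 1 and 2, sham and naïve, or 20.0, 73.7, 116 and 20.2 CPM against 2.09 to 5.55 CPM in all other nuclei, with Siglec1 at 0 in all 4 rats and Mrc1 at 0 in TBI replicate 1. Leaving out nuclei with UMIs of at least 2 of these markers dropped 1, 9, 7 and 1 nuclei in the same order of rats. These held 0, 0, 1 and 0 Cd74 UMIs, so none of the 49 of TBI replicate 2 was removed. With so few nuclei dropped, this step could hardly remove any, and the part of such cells in Cd74 was not tested. The 6 B cell markers summed to 0, 2, 0 and 1 UMIs, with Cd79a, Cd79b and Ms4a1 at 0 in every rat. The 7 T and NK cell markers summed to 2, 20, 11 and 12 UMIs, or 4.45, 29.5, 35.3 and 26.9 CPM against 3.29 to 5.0 CPM in all other nuclei, and the 5 monocyte and neutrophil markers to 0, 4, 7 and 0. The 7 dendritic cell markers summed to 25, 33, 20 and 12 UMIs and stood at 26.9 to 64.2 CPM there and at 44.4 to 93.2 CPM in all other nuclei, with Xcr1 and Ccr7 at 0 in every rat. Over the 6 cell types and 4 rats, and with the 6 genes themselves left out, the 8 genes whose level was most like that of Cd74 included Jak1, Cd4, Wdfy4, Laptm5, Plek, Arhgap30 and Cd37, with Pearson's r from 0.884 to 0.907 over 24 sums that share libraries and depth. Cd4 is the class II coreceptor, and Wdfy4 is known from antigen cross-presentation by dendritic cells.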

How the data were processed

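The genes and lists were chosen with earlier results of these data known. For bulk, the authors quantified reads with kallisto against a rat reference and deposited estimated counts per transcript and log2 CPM per gene, after filters on low abundance and low variance. The log2 CPM matched log2 of (count + 0.5) scaled to 1e6, so gene counts were worked back, rounded and tested with edgeR 4.0.16 (TMM, quasi-likelihood, Benjamini-Hochberg, FDR under 0.01), with DESeq2 1.42.0 and limma 3.58.1 as alternatives. Gene names came from the RefSeq table of GRCr8, which named 13778 of 14166 Entrez rows. For nuclei, the authors aligned reads with Cell Ranger (Rnor_6.0, exons and introns) and deposited UMI counts. Some entries are stored at 0 in shares that differ by rat, and the step that made them is not stated. Comparisons between rats took the counts as given. Nuclei were kept at 500 or more UMIs, 300 or more genes, a log10 genes per log10 UMI ratio of 0.8 or more, and at most 5% mitochondrial and 2% ribosomal UMIs, then gated by markers and summed per rat, since nuclei are not replicates. Levels are CPM of the cell type's UMIs. A cell type needed 50 nuclei in every rat, which left out endothelial cells and pericytes. Exact binomial and Poisson intervals cover counting error. Named genes were the 6, pathway genes called or among the most abundant of their list, and the 8 most like Cd74, and some are not reported here. Tests were checked on simulated data with 200 changed genes. In bulk, edgeR recovered 99 with 2 false calls and DESeq2 148 with 29 false calls. In microglia, edgeR recovered 80 with 4 false calls and DESeq2 51 with 1. Over all nuclei, edgeR recovered 64 with 4 false calls and DESeq2 107 with 23. Some DESeq2 calls in bulk can thus be false, and genes that edgeR did not call can still differ. Each library is labelled as its own replicate, and the p-values measure the spread between these libraries.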

Additional observations from a re-analysis of the deposited data

Results flagged for a closer look

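The nucleus matrices also hold entries that are stored with a value of 0 UMIs, which no comparison uses. For Cd74 there were 133 such entries in TBI replicate 2, against 3, 6 and 11 in TBI replicate 1, sham and naïve nuclei, so that TBI replicate 2 lay above both controls and TBI replicate 1 did not. They made up 48.0% of the Cd74 entries of TBI replicate 2 and 9.38%, 24.0% and 25.6% of those of TBI replicate 1, sham and naïve, where entries of all genes were stored at 0 in 27.4%, 1.63%, 11.1% and 15.5% of cases in the same order. Their cause was not tested. Groups of 2 or 3 rats are too small for a test of outlying samples.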

How the results depend on the processing

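Every alternative tried kept the 6 genes higher in TBI in bulk. Leaving out the libraries 1 by 1, edgeR called 0 to 0 genes and 0 to 0 of the 6, and the Log2FC ranged from 1.68 to 2.50 for Cd74, 1.5 to 2.33 for RT1-Da, 1.18 to 2.03 for RT1-Db1, 2.00 to 2.84 for RT1-Ba, 2.07 to 3.08 for RT1-Bb and 1.29 to 1.77 for Ciita. Against 0 genes by edgeR, DESeq2 called 169 genes and 3 of the 6, and adjusted over p under 0.05 alone 475 genes and 5 of the 6. limma, RLE size factors, filterByExpr and the injury period as a covariate gave 0. With the replicate number as a block 1 gene was called and none of the 6. Same-numbered libraries deviated together with r of 0.352, 0.173 and −0.030, so the numbers were not taken as a pairing. For nuclei no paired analysis was possible because the TBI and control rats share fewer than 2 numbers. The following were chosen after seeing the data. The difference of Cd74 from the microglial markers within libraries ranged from 0.72 to 1.61 with each library left out. DESeq2 called 38 to 234 genes and 0 to 4 of the 6 with each library left out, the 38 without sham replicate 3. The sums over all nuclei gave 0 genes by edgeR, 1 by DESeq2 and 0 to 58 with each rat left out, 50 of them and 1 of the 6, Cd74 (Log2FC 2.84, FDR = 0.00329 by edgeR), without TBI replicate 1, where the lone TBI rat is assumed to vary like the controls. With no low-count filter that fit called 0 genes, with Cd74 at an FDR of 0.939. There the Log2FC ranged from −1.12 to 2.38 for RT1-Da and from −0.14 to 0.65 for Ciita, the lowest values being without TBI replicate 2.

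In gated microglia, 0 genes became 5 without the low-count filter and 0 to 218 with each rat left out, the 218 without the sham rat, where the lone remaining control is assumed to vary like the TBI rats, and none of the 6 was called. The Log2FC ranged from −2.09 to 1.81 for Cd74 and from −0.31 (without the sham rat) to 6.10 for RT1-Da, the last without the naïve rat, where the lone control had no UMI and the value depends on the prior count. Without TBI replicate 2 RT1-Da did not pass the low-count filter, and with no filter its Log2FC was −2.30. The difference in the share with a Cd74 UMI ranged from −1.58 points without TBI replicate 2 to 3.84 points without TBI replicate 1, was 0.804 to 1.37 points under the other gates and after thinning, and fell to 0.0739 points at 1000 or more UMIs per nucleus. Causes were not tested. At 295 to 690 gated nuclei per rat, differences in genes with a few UMIs are not detectable.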
